A study of Mus musculus with 12 samples.

Results

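The proteasome is the protease complex that degrades most ubiquitin-tagged proteins in the cytosol and nucleus. Its barrel-shaped 20S core is built from outer alpha rings and inner beta rings, the beta rings carry the catalytic sites, and a 19S cap recognises, unfolds and feeds in the substrate. Where interferon signalling is active, including at the intestinal surface, inducible catalytic subunits replace the constitutive ones (the immunoproteasome), and this changes the peptides available to MHC class I.

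Proteasome genes were taken as all genes of the count table whose symbol begins with *Psm*, a letter from a to g and a digit, leaving out names marked as pseudogenes. The rule found 50 of 34245 genes. They comprised 7 alpha ring genes, 4 beta genes without a catalytic site, 3 constitutive and 3 inducible catalytic genes, 6 ATPases and 11 other subunits of the 19S cap, 3 chaperones of 19S assembly and 4 of 20S assembly, 5 activator genes and 1 inhibitor. The remaining 3 were *Psma8*, a testis-type alpha subunit, *Psmb11*, the thymus-type beta subunit, and *Psmc3ip*, which matches the rule by name only and acts in meiotic recombination. *Psma8* and *Psmb11* had 0 counts in 12 of 12 libraries. At the limit of 3 counts set per library this allows up to 0.0359 CPM in the deepest library and 0.327 CPM in the one with the highest limit, where CPM are counts scaled to an equal library size with edgeR's TMM factors. The other 48 genes each had at least 10 counts in every comparison and were tested. Limits and counts here cover counting error only, since the PCR-amplified reads carried no molecular identifiers.

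The RNA came from male C57BL/6 mice carrying the Lgr5-EGFP-IRES-creERT2 allele, which young and aged mice shared and which marks stem cells with EGFP under the *Lgr5* promoter. Young mice were mature adults under a year of age, aged mice were near the end of the usual life span, and no treatment is named. Intestinal stem cells (ISC) were the live EGFP-high cells of small intestine crypts, and adult enterocytes (AE) were live Epcam-high villus cells negative for CD31 and CD45, with 3 libraries in each of the 4 groups. For 8 of 12 samples the code in the title and the written-out group in the same title disagree. Columns of counts were therefore grouped by the age letter and cell type in their own headers, and libraries are called by these codes (Y1 to Y3 for young, O1, O3 and O5 for aged).

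Libraries held between 11893817 and 26796461 counts, except young AE Y3 with 110794420. The stem cell list (5 of 5 genes found) summed to 4461 to 6051 CPM in young and 4283 to 6297 in aged ISC, and 45.6 to 441 in young and 57.2 to 109 in aged AE. The enterocyte list (6 of 6) ran the other way, at 1649 to 4461, 758 to 2572, 29094 to 36126 and 36453 to 41774 CPM. A goblet cell list (3 of 3) reached 18998 to 34635 CPM in young AE and 22676 to 33542 in aged AE, against 1234 to 1620 and 947 to 1082 in ISC. Most of the AE sum was *Fcgbp*, at 16297 to 29424 CPM in young and 20420 to 29827 in aged AE. *Muc2* was at 92.5 to 135 and 56.4 to 280 CPM there. An enteroendocrine list (2 of 2) reached 1976 to 4170 and 2106 to 4401 CPM in AE. Secretory cell RNA was thus also present in the villus gate. A Paneth cell list (3 of 3) was at 408 to 1244 CPM in young and 462 to 818 in aged ISC. In bulk RNA, fewer cells of a type and less RNA per cell cannot be told apart. The study's methods list 3 animals per age, while the labels do not tie a library to a mouse, and p-values measure the spread between these libraries.

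Before the values, a limit of the counting needs showing, because it touches 2 of the activator genes. *Psme2* encodes the beta subunit of the PA28 activator, and *Psme2b* is an intronless copy of it on another chromosome. In GENCODE M21 (GRCm38) *Psme2* lies at chr14:55587441-55591113 on the minus strand and *Psme2b* at chr11:48945354-48946190, also on the minus strand. Their open reading frames are both 720 bases long and differ at 5 positions (99.3% identical). The stretch from base 481 to base 540 of each reading frame is shown with the differing bases in capitals.
Psme2: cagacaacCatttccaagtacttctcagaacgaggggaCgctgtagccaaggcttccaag
Psme2b: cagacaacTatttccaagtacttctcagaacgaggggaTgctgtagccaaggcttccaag
Of the windows of 50 bases, the read length, 59.3% of those in the *Psme2* transcript also occur in *Psme2b*, and 68.7% of those in *Psme2b* occur in *Psme2*. Only uniquely mapped reads were counted, so the counts of each come from the windows that differ, and their split is uncertain. For *Psmb5*, *Psmb3* and *Psma5*, 57.1%, 55.8% and 54.5% of windows occur in another annotated transcript, most of them in pseudogenes. Parts of *Psmd9*, *Psmc3ip*, *Psmb8*, *Psmb7* and *Psmd13* overlap exons of a gene on the opposite strand (10.1% to 25.5% of their exonic bases). The study used a directional library kit and drew example tracks by strand, but whether the gene counts used strand is not given. *Psmb5* shares 12.1% of its exonic bases with the microRNA gene *Mir686* on the same strand.

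Proteasome genes together took 0.566% to 0.804% of the counts of an ISC library and 0.319% to 0.442% of an AE library. After TMM scaling their sum was 4494 to 5921 CPM in young and 4145 to 6047 in aged ISC, and 4473 to 5067 in young and 4432 to 5817 in aged AE, and these ranges overlap. The 2 readings differ by the TMM factors, which were 1.26 to 1.37 in ISC and 0.72 to 0.82 in AE, where the 10 most abundant genes took 8.50% to 13.1% of counts against 4.17% to 6.06% in ISC. Measured per kilobase of merged exons, the 14 constitutive genes of the 20S core ranged in young ISC from 18.6 CPM per kb (*Psma3*) to 128 (*Psmb4*), and the 17 genes of the 19S cap from 12.9 (*Psmd11*) to 89.3 (*Psmc5*). The same 4 genes were lowest and highest in each of the 4 groups. *Psma3* had 22.0% of its windows in another transcript, and the part of such lost reads in these levels was not tested.

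AE were compared with ISC at each age to see how proteasome transcripts change as stem cells differentiate. In young mice 15 of 48 proteasome genes passed an FDR of 0.05 in edgeR's quasi-likelihood test, 13 lower and 2 higher in AE. Of all 16681 genes tested in that comparison 53.1% passed, 25.4% lower and 27.7% higher. In aged mice 23 of 48 passed, 21 lower and 2 higher, against a background of 64.1% of 15855 genes, 34.1% lower and 30% higher. In both comparisons the share of proteasome genes called in either direction (31.2% and 47.9%) was below the background, and the calls lay mostly on the lower side. In young mice the 13 of 48 lower were close to the 25.4% of all genes, and in aged mice the 21 of 48 were above the 34.1%. The 2 of 48 higher at each age were far below the 27.7% and 30% of all genes. The median log2 fold change between AE and ISC was -0.27 over proteasome genes and 0.15 over all genes in young mice, and -0.35 and -0.13 in aged mice. With libraries scaled by their totals alone, 43 of 48 were lower and 0 higher at each age, with medians of -0.97 and -1.12 against -0.55 and -0.91 for all genes. The direction of the 20S assembly chaperones, *Psmb5*, *Psmb7* and *Psme3* was the same under both scalings. With library totals *Psme2* was at 0.10 in young and -0.02 in aged mice and *Psme2b* at -0.08 and 0.02, so neither was called and each turned direction at 1 age. For this reason levels relative to other subunits of the same library, which need no scaling, are given beside the CPM.

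The same 13 genes were lower at both ages: *Psmg1*, *Psmg2*, *Psmg3*, *Psmg4*, *Psmd5*, *Psma5*, *Psmb2*, *Psmb5*, *Psmb7*, *Psmc3*, *Psmd7*, *Psme3* and *Psmc3ip*. *Psme2* and *Psme2b* were higher at both. A further 8 passed in aged mice alone, all lower (*Psma1*, *Psma3*, *Psma7*, *Psmb1*, *Psmd2*, *Psmd6*, *Psmd12* and *Psmd14*), but for none of the 48 did the difference between ages itself pass the test. The remaining 25 passed at neither age. The 2 cell type comparisons share no libraries, and 45 of 48 genes had the same sign in both. The same share over all genes was not taken, so this agreement is not read as a trait of proteasome genes. Without aged AE O5 the count in aged mice was 15, and leaving out single libraries gave 10 to 21 in young mice and 15 to 29 in aged mice.

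**Figure D1:**
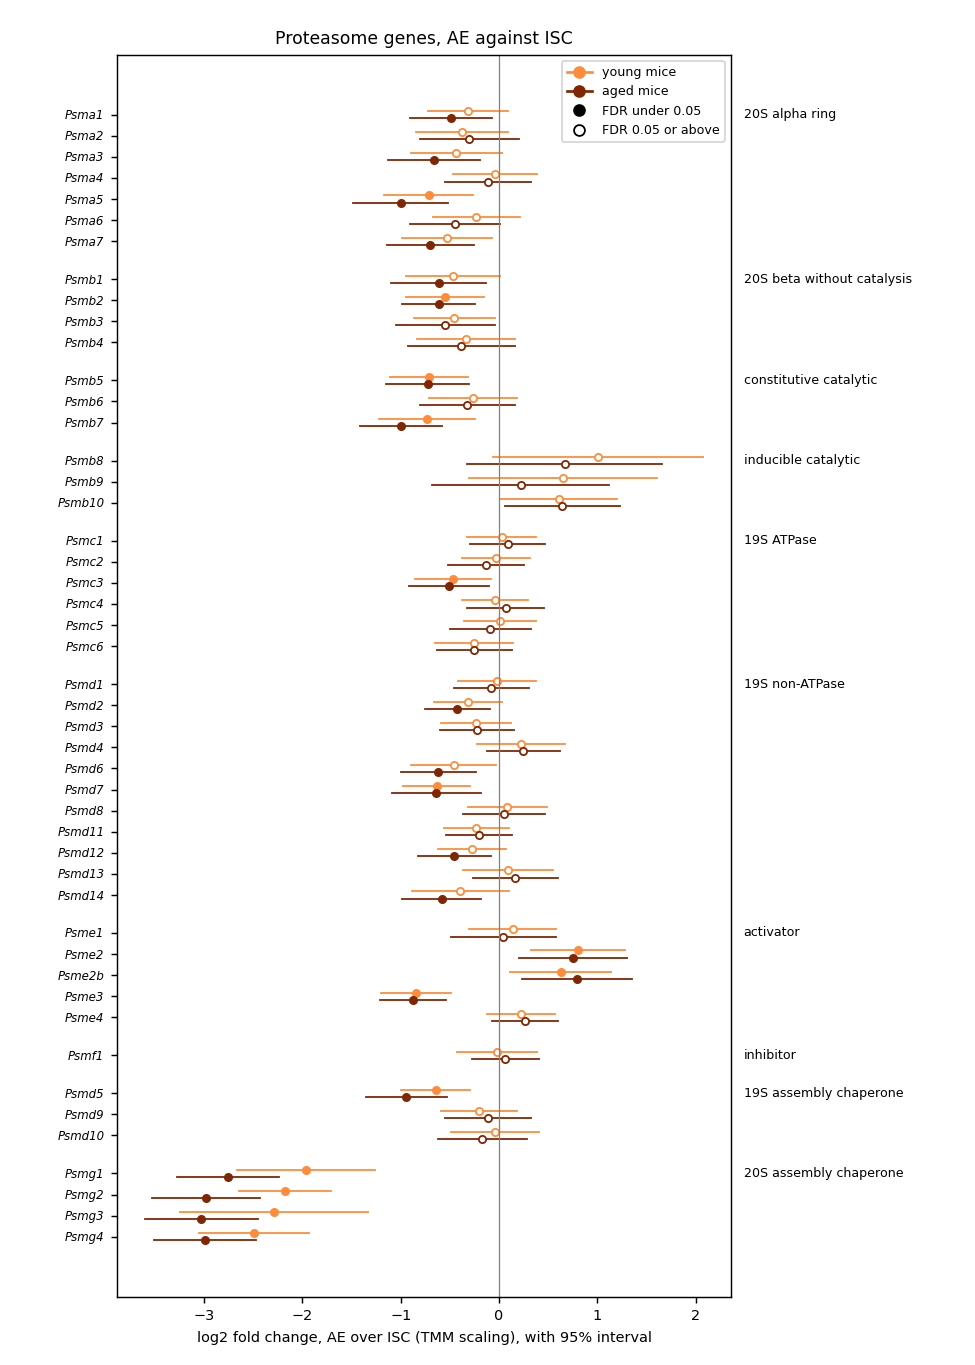
Log2 fold change of AE over ISC (x axis, TMM scaling) for the 47 tested proteasome genes other than *Psmc3ip*, grouped by role, in young (light) and aged (dark) mice. Bars are 95% intervals and filled points passed an FDR of 0.05. The 4 genes of 20S assembly sit between -3.03 and -1.96, below all other genes shown.

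Of the genes that act in the proteasome, the 4 chaperones of 20S assembly fell most. *Psmg1* and *Psmg2* encode one heterodimer and *Psmg3* and *Psmg4* the other, and both act on the alpha ring before the core is complete. *Psmg1* was at 33.8, 52.0 and 43.3 CPM in young ISC and 49.9, 44.6 and 29.7 CPM in aged ISC, against 12.2, 14.5 and 6.86 CPM in young AE and 6.57, 5.56 and 7.31 CPM in aged AE. *Psmg2* was at 29.1, 39.6 and 38.9 CPM in young ISC and 45.8, 43.2 and 30.1 CPM in aged ISC, against 7.37, 9.02 and 7.44 CPM in young AE and 3.90, 6.09 and 5.89 CPM in aged AE. For both genes every AE library lay below every ISC library. *Psmg3* was at 29.4, 48.7 and 30.2 CPM in young ISC and 45.7, 46.7 and 27.9 CPM in aged ISC, against 8.02, 11.0 and 3.61 CPM in young AE and 6.37, 4.66 and 4.47 CPM in aged AE. *Psmg4* was at 14.2, 21.0 and 15.8 CPM in young ISC and 20.9, 18.0 and 16.9 CPM in aged ISC, against 3.11, 3.06 and 2.91 CPM in young AE and 3.04, 2.24 and 2.07 CPM in aged AE. The groups were again separate by cell type, and *Psmg3* in young AE varied the most, with Y3 the lowest. AE differed from ISC by log2 fold changes of -1.96 (SE 0.30, FDR = 0.00113) in young mice for *Psmg1*, -2.18 (SE 0.20, FDR = 1.87e-04) for *Psmg2*, -2.29 (SE 0.41, FDR = 0.00227) for *Psmg3* and -2.49 (SE 0.24, FDR = 2.07e-04) for *Psmg4*. In aged mice these were -2.75 (SE 0.23, FDR = 5.36e-06), -2.98 (SE 0.25, FDR = 4.82e-06), -3.03 (SE 0.26, FDR = 5.59e-06) and -2.99 (SE 0.23, FDR = 3.39e-06) in the same order. All 4 passed at both ages without any single library, with log2 fold changes from -2.80 to -1.75 in young and -3.24 to -2.60 in aged mice.

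The chaperones were also lower against the particle they assemble. Relative to the mean log2 counts of the 31 constitutive particle subunits of the same library, AE were lower than ISC by 3.27-fold for *Psmg1*, 3.69-fold for *Psmg2*, 4.22-fold for *Psmg3* and 4.55-fold for *Psmg4* in young mice. In aged mice the same folds were 5.14, 6.16, 6.26 and 6.27. On this scale 6 of 6 AE libraries lay below 6 of 6 ISC libraries for each of the 4 genes. The same was true of 19.3% of all 17377 genes with at least 10 counts over the 12 libraries, and the opposite of 27%. Summed proliferation markers (5 of 5 found) moved with them, from 912 to 1049 CPM in young ISC and 837 to 1119 in aged ISC to 29.3 to 261 in young AE and 48.3 to 55.3 in aged AE, and their part in the result was not tested. Within young AE, Y2 had the most stem cell (441 CPM) and proliferation (261 CPM) marker RNA and Y3 the least (45.6 and 29.3 CPM), and *Psmg1*, *Psmg2* and *Psmg3* were highest in Y2. *Psmg4* was nearly level there and highest in Y1, and *Psmg2* was lowest in Y1. In aged AE, *Psmg1* was lowest in O3, which had the most stem cell (109 CPM) and the least proliferation (48.3 CPM) marker RNA. *Psmg3* shares 9.68% of its exonic bases with an overlapping gene on the same strand.

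**Figure D2:**
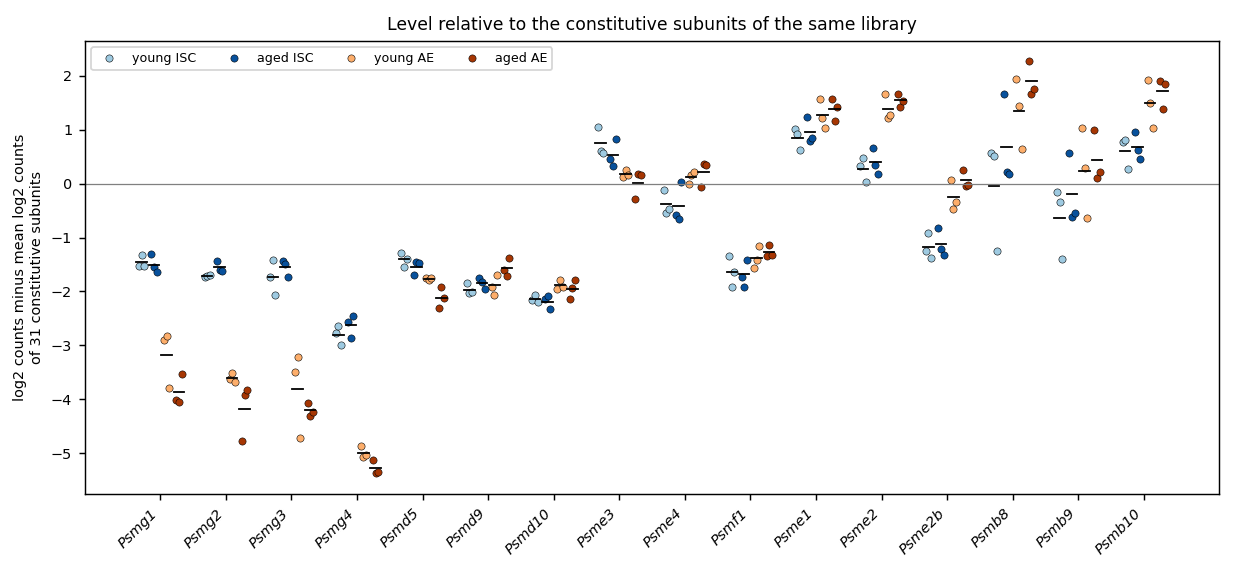
Log2 counts of 16 proteasome genes outside the constitutive particle minus the mean log2 counts of the 31 constitutive subunits of the same library (y axis). Each point is a library, horizontal lines are group means of 3 libraries, and colours mark the 4 groups. AE sit below ISC for the 4 *Psmg* genes, *Psmd5* and *Psme3*, and above ISC for *Psme2*, *Psme2b* and *Psmb10*, with no overlap between cell types.

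The promoters of these chaperones are shown as members that moved together, for the 3 whose sequence could be printed. RefSeq (GRCm38.p6) gives 300 bases, 250 before and 50 after the start. Capitals mark matches to the motifs searched on both strands: the ISRE (GAAA, any 2 bases and GAAA again, bound by interferon regulatory factors), TTCNNNGAA (bound by STAT factors, its own reverse complement) and TGACNNNGC (the antioxidant response element, bound by Nfe2l1 and Nfe2l2). *Psmg1* is at chr16:95990911-95991210 (minus strand), *Psmg3* at chr5:139826845-139827144 (minus strand) and *Psmg4* at chr13:34162714-34163013 (plus strand).
Psmg1: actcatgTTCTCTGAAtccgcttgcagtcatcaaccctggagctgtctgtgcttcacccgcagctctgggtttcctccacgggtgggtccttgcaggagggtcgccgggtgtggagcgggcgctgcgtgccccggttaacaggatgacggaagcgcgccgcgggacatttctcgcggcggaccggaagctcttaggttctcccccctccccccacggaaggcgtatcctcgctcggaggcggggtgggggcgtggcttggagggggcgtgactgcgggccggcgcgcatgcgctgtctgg
Psmg3: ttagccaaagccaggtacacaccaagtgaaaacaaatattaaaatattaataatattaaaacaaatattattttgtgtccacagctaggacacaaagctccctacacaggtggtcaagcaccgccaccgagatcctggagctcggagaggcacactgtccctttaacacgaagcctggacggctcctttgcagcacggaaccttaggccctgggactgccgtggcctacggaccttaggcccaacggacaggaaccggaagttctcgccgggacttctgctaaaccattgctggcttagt
Psmg4: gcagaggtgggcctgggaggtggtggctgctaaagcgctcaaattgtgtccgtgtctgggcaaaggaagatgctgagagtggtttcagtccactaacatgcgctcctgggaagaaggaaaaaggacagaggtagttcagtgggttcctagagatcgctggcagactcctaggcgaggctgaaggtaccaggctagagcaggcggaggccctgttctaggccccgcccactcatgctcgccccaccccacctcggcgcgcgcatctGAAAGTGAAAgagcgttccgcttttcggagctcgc
*Psmg1* held a match to TTCNNNGAA 243 bases before its start, *Psmg4* a match to the ISRE 16 bases after its start, and *Psmg3* no match. None of the 3 motifs was common to these promoters. Promoters were found for 42 of the 50 genes, and 5 genes matched the ISRE, 3 matched TTCNNNGAA and 6 matched TGACNNNGC. Of all 32851 promoters of the same length, 3.44%, 8.3% and 12.4% hold these motifs. A match is a run of letters and was not tested as a binding site.

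Among the chaperones of 19S assembly the picture was uneven. *Psmd5*, which holds the base of the cap during assembly, passed at both ages, with log2 fold changes of -0.65 (SE 0.15, FDR = 0.00799) in young and -0.94 (SE 0.18, FDR = 0.00134) in aged mice. *Psmd5* was at 40.0, 44.7 and 47.8 CPM in young ISC and 38.4, 47.5 and 33.6 CPM in aged ISC, against 26.8, 29.7 and 28.2 CPM in young AE and 21.4, 24.4 and 19.4 CPM in aged AE. All AE libraries were below all ISC libraries. *Psmd9* and *Psmd10* (gankyrin), which act at the same step, did not pass, with values of -0.20 and -0.04 in young and -0.11 and -0.17 in aged mice.

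The constitutive particle itself changed less, with log2 fold changes of its 31 genes between -0.73 and 0.22 in young mice and between -1.001 and 0.25 in aged mice. In young mice 6 of 31 passed and in aged mice 14 of 31, all lower in AE (19.4% and 45.2%, against 25.4% and 34.1% of all genes lower and 53.1% and 64.1% called). By role, 1 of 7 alpha ring genes, 1 of 4 beta genes without catalysis, 2 of 3 constitutive catalytic genes, 1 of 6 ATPases and 1 of 11 other cap genes passed in young mice. In aged mice these were 4, 2, 2, 1 and 5. The lowest of the alpha ring was *Psma5*, at -0.71 in young and -1.001 in aged mice. Of the ATPases that unfold the substrate, *Psmc3* alone passed, at -0.47 (SE 0.17, FDR = 0.0453) and -0.51 (SE 0.18, FDR = 0.0309), while the other 5 lay between -0.26 and 0.09. In the rest of the cap, *Psmd4*, a ubiquitin receptor, had the highest value (0.22 and 0.25, not called), and *Psmd7*, which pairs with the deubiquitinase Psmd14, was called at both ages (-0.63 and -0.64).

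Within this particle some subunits stood apart by cell type. Relative to the mean of the 31 subunits, 9 had 6 of 6 AE libraries above 6 of 6 ISC libraries and 6 had them below. These subunits make up that mean, so some must lie above it and some below. The 27% and 19.3% of all genes are thus no like background for them. On CPM, AE were above ISC without overlap for 0 of 31 in young mice and 1 of 31 in aged mice, and below for 10 and 9. Of all genes, 5383 of 16681 in young and 5294 of 15855 in aged mice were above, and 5116 and 5779 below. The relative levels gave the following genes. Above were 4 ATPases (*Psmc1*, *Psmc2*, *Psmc4* and *Psmc5*), 4 other cap genes (*Psmd1*, *Psmd4*, *Psmd8* and *Psmd13*) and *Psma4*. Below were *Psmb5*, *Psmb7*, *Psma5*, *Psma7*, *Psmd7* and *Psmc3*. The differences of group means were small, from -0.43 to 0.49 in young and -0.62 to 0.62 in aged mice on the log2 scale.

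The catalytic subunits were then taken in pairs, since each inducible subunit takes the place of a constitutive one. *Psmb5* encodes the chymotrypsin-like, *Psmb6* the caspase-like and *Psmb7* the trypsin-like site, and *Psmb8*, *Psmb9* and *Psmb10* are their inducible counterparts. *Psmb5* was at 58.2, 84.1 and 71.6 CPM in young ISC and 70.4, 71.0 and 50.1 CPM in aged ISC, against 42.1, 43.1 and 45.3 CPM in young AE and 47.9, 38.8 and 35.0 CPM in aged AE. *Psmb7* was at 100.3, 164 and 140.4 CPM in young ISC and 161, 162 and 113 CPM in aged ISC, against 79.3, 93.4 and 70.8 CPM in young AE and 86.6, 74.0 and 69.3 CPM in aged AE. For both, every AE library was below every ISC library of its age. AE differed from ISC by log2 fold changes of -0.71 (SE 0.17, FDR = 0.00867) and -0.73 (SE 0.19, FDR = 0.00729) for *Psmb5*, and -0.73 (SE 0.21, FDR = 0.0196) and -0.998 (SE 0.19, FDR = 0.00108) for *Psmb7*, in young and aged mice. The call of *Psmb7* in young mice was lost without young ISC Y2 (FDR = 0.0786), young ISC Y3 (FDR = 0.0506) or young AE Y1 (FDR = 0.0548). *Psmb6* was at 107, 163 and 158 CPM in young ISC and 158, 175 and 103 CPM in aged ISC, against 118, 127 and 111 CPM in young AE and 141, 105 and 122 CPM in aged AE. These ranges overlap, and *Psmb6* was not called (-0.26 and -0.32), although without aged ISC O5 its value in aged mice was -0.53 (FDR = 0.0244).

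The inducible subunits stood higher in AE on average, with a wide spread between libraries. *Psmb8* was at 144, 186 and 53.2 CPM in young ISC and 392, 152 and 105 CPM in aged ISC, against 346, 278 and 149 CPM in young AE and 511, 293 and 281 CPM in aged AE. Y3 was the lowest library in both young groups, and O1 was the highest in both aged groups. *Psmb9* was at 87.2, 103 and 47.4 CPM in young ISC and 182, 85.7 and 64.0 CPM in aged ISC, against 186, 126 and 61.5 CPM in young AE and 211, 98.5 and 97.8 CPM in aged AE. *Psmb10* was at 165, 229 and 151 CPM in young ISC and 241, 200.4 and 128 CPM in aged ISC, against 345, 289 and 196 CPM in young AE and 395, 240.2 and 303 CPM in aged AE. Within each group the order of the libraries was the same for *Psmb8* and *Psmb9*, and AE and ISC overlapped at each age for all 3 genes. In young mice AE differed from ISC by log2 fold changes of 1.01 (SE 0.46, FDR = 0.0995) for *Psmb8*, 0.65 (SE 0.41, FDR = 0.216) for *Psmb9* and 0.61 (SE 0.26, FDR = 0.0789) for *Psmb10*. In aged mice the values were 0.67 (SE 0.44, FDR = 0.210), 0.22 (SE 0.40, FDR = 0.654) and 0.64 (SE 0.26, FDR = 0.0534).

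These values turn on which libraries are compared with which. ISC and AE libraries of the same code number deviated together, and with the number as a replicate block *Psmb8* passed in young (1.11 (FDR = 0.00215)) and aged mice (0.84 (FDR = 0.00321)), as did *Psmb10* (0.59 (FDR = 0.0319) and 0.67 (FDR = 0.00888)). *Psmb9* passed with the block in young mice alone (0.58 (FDR = 0.0318)). Without young AE Y3, *Psmb8* was at 1.21 (FDR = 0.0401), *Psmb9* at 0.89 (FDR = 0.0402) and *Psmb10* at 0.73 (FDR = 0.0363) in young mice. Without aged ISC O1, *Psmb8* was at 1.42 (FDR = 0.00391) and *Psmb10* at 0.85 (FDR = 0.0269) in aged mice, and without aged AE O3 *Psmb10* was at 0.79 (FDR = 0.0439). *Psmb9* in aged mice turned to -0.23 without aged AE O1 and to -0.07 without aged ISC O5.

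**Figure D3:**
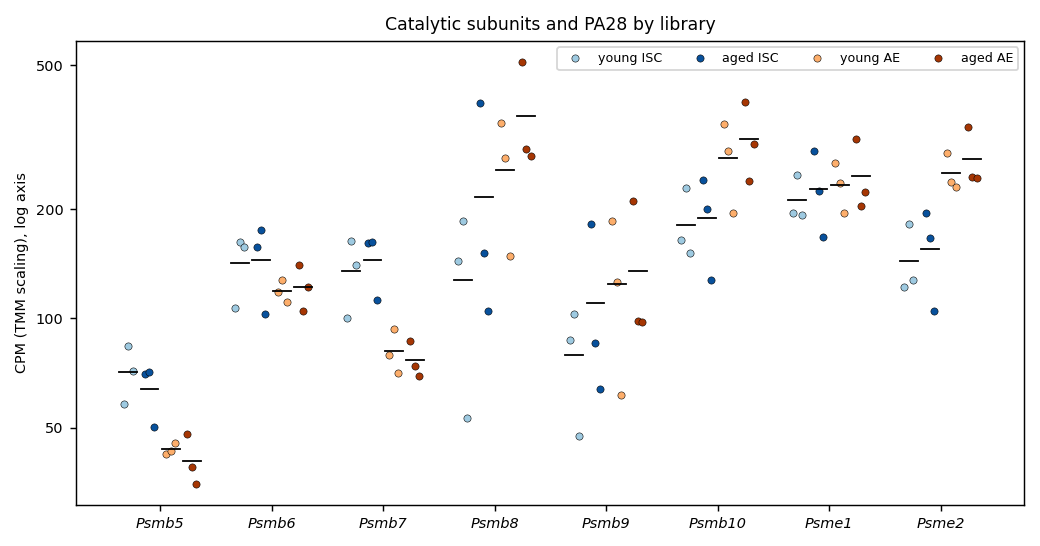
CPM with TMM scaling (log y axis) of the constitutive (*Psmb5*, *Psmb6*, *Psmb7*) and inducible (*Psmb8*, *Psmb9*, *Psmb10*) catalytic subunits and of PA28 (*Psme1*, *Psme2*). Each point is a library and lines are means of 3 libraries. *Psmb5* and *Psmb7* are lower and *Psme2* higher in AE without overlap within an age, while the spread of *Psmb8* spans 53.2 to 511 CPM.

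The ratio of each inducible to its constitutive partner within a library does not depend on scaling. It is a ratio of counts, not corrected for length or for reads lost to shared windows. Merged exons span 3381 bases in *Psmb8* and 899 in *Psmb5*, and 57.1% of *Psmb5* windows occur in another transcript. A value above 0 therefore does not show more inducible than constitutive transcript, and only differences between libraries are read. The log2 ratio of *Psmb10* to *Psmb7* was 0.72, 0.48 and 0.11 in young and 0.58, 0.31 and 0.18 in aged ISC, and 2.12, 1.63 and 1.47 in young and 2.19, 1.70 and 2.13 in aged AE. That of *Psmb8* to *Psmb5* was 1.31, 1.14 and -0.43, 2.48, 1.10 and 1.07, 3.04, 2.69 and 1.72 and 3.42, 2.91 and 3.01 in the same order. For both pairs the AE libraries of an age were all above the ISC libraries of that age. The mean difference was 1.30 in young and 1.65 in aged mice for *Psmb10*, and 1.81 and 1.56 for *Psmb8*, each with a two-sided exact permutation p of 0.1. This is the smallest p that 3 libraries against 3 can give, and adjusted by Benjamini-Hochberg over the 12 ratio comparisons run it was 0.3. The ratio of *Psmb9* to *Psmb6* was -0.29, -0.66 and -1.73 in young and 0.21, -1.03 and -0.69 in aged ISC, and 0.66, -0.02 and -0.85 in young and 0.58, -0.09 and -0.32 in aged AE. These overlap, with differences of 0.82 and 0.56 (exact permutation p = 0.3 for both). Within code numbers, a comparison added after the data were seen, the AE library was above the ISC library in 6 of 6 pairs for each of the 3 ratios, by 0.94 to 2.15 for *Psmb8*, 0.36 to 0.95 for *Psmb9* and 1.15 to 1.95 for *Psmb10*. The two-sided exact paired permutation p over both ages was 0.0312 for each, the smallest that 6 pairs can give, and 0.0312 after Benjamini-Hochberg adjustment over the 3 ratios.

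**Figure D4:**
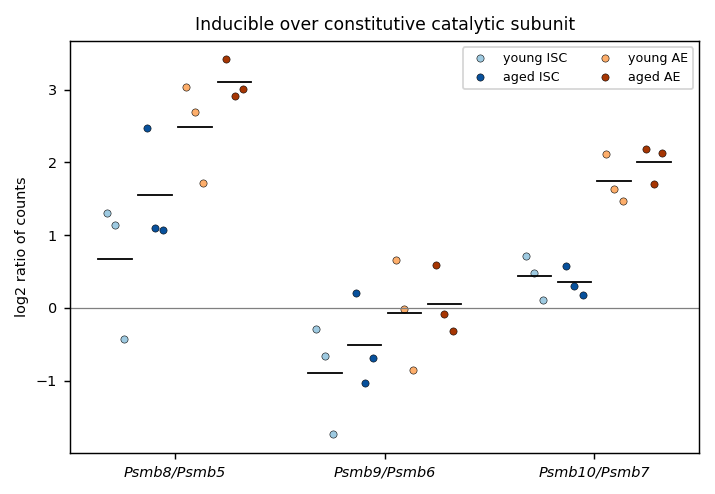
Log2 ratio of counts of each inducible catalytic subunit to the constitutive one it replaces (y axis), per library (points) with group means of 3 libraries (lines). For *Psmb8*/*Psmb5* and *Psmb10*/*Psmb7* the AE libraries lie above the ISC libraries of the same age, and for *Psmb9*/*Psmb6* they overlap.

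Lymphocytes carry much immunoproteasome, so their markers are given beside these genes. The 8 T cell and intraepithelial lymphocyte markers (8 of 8 found) summed to 9.77 to 22.7 CPM in young and 3.51 to 4.97 in aged ISC, and 18.4 to 57.0 in young and 21.2 to 58.3 in aged AE. *Cd3e*, *Cd3g* and *Gzmb* were at 0 in aged ISC O3 and O5 and *Cd8a* in O5, and in the other 10 libraries none was at 0. In AE they followed the order of *Psmb8*, with 57.0, 24.7 and 18.4 CPM in Y1, Y2 and Y3 and 58.3, 30.8 and 21.2 CPM in O1, O3 and O5. Their part in the AE values was not tested. In young ISC they were at 22.7, 10.1 and 9.77 CPM in Y1, Y2 and Y3, where *Psmb8* was also lowest in Y3 but highest in Y2. In aged ISC they were at 3.62, 4.97 and 3.51 CPM in O1, O3 and O5, where *Psmb8* was highest in O1. That range is narrow, with up to 4 of 8 markers at 0, and gives no reliable order. Their part in the ISC values was not tested either. Monocyte and macrophage markers (5 of 5 found) were at 8.59 to 12.04, 9.28 to 20.3, 12.6 to 17.1 and 14.5 to 24.3 CPM, with 0 to 2 at 0, and B and plasma cell markers (4 of 4 found) at no more than 1.34 CPM. Young ISC Y3, the lowest in *Psmb8* and *Psmb9*, had the most enterocyte RNA of the ISC libraries (4461 CPM).

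The activators took both directions, the only role with calls on either side. *Psme1* and *Psme2* encode the alpha and beta chains of PA28, an interferon-inducible ring that opens the core, *Psme3* encodes the nuclear PA28 gamma, and *Psme4* the activator PA200. *Psme2* was at 122, 182 and 128 CPM in young ISC and 195, 167 and 105 CPM in aged ISC, against 286, 238 and 230.3 CPM in young AE and 338, 246 and 244 CPM in aged AE. AE were above ISC at each age without overlap, and the log2 fold change was 0.80 (SE 0.21, FDR = 0.0116) in young and 0.75 (SE 0.25, FDR = 0.0221) in aged mice. Without aged AE O1 the value in aged mice was 0.59 (FDR = 0.0857). The copy *Psme2b* was at 52.8 ± 14.8 CPM (SD, n = 3) in young and 54.6 ± 16.5 in aged ISC, and 81.6 ± 11.7 in young and 99.6 ± 24.0 in aged AE, with 0.63 (SE 0.22, FDR = 0.0441) and 0.79 (SE 0.25, FDR = 0.0183). In young mice that call held without young ISC Y2 and was lost without each of the other 5 libraries (FDR = 0.0694 to 0.158), and in aged mice without aged AE O1 it was at 0.59 (FDR = 0.0767).

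The partner chain did not follow. *Psme1* was at 196, 248 and 193 CPM in young ISC and 289.9, 225 and 167 CPM in aged ISC, against 269, 237 and 196 CPM in young AE and 313, 205 and 223 CPM in aged AE. These overlap throughout, with log2 fold changes of 0.14 (SE 0.19, FDR = 0.570) and 0.04 (SE 0.24, FDR = 0.884) and 95% intervals of -0.31 to 0.58 and -0.49 to 0.58. Against the 31 constitutive subunits of the same library *Psme2* was 2.15-fold higher in AE in young and 2.21-fold in aged mice, with 6 of 6 AE libraries above 6 of 6 ISC libraries, and *Psme1* 1.34-fold and 1.34-fold, with overlap. *Psme3* was at 202, 199 and 187 CPM in young ISC and 169, 164 and 164 CPM in aged ISC, against 99.0, 122 and 106 CPM in young AE and 87.3, 104 and 93.5 CPM in aged AE. Every AE library lay below every ISC library, and *Psme3* was lower, with log2 fold changes of -0.85 (SE 0.15, FDR = 0.00230) and -0.87 (SE 0.15, FDR = 6.20e-04). *Psme4* was at 0.22 and 0.26 and was not called. *Psmf1*, whose product PI31 inhibits the core in vitro, was at 37.8 ± 3.14 CPM in young and 35.6 ± 1.25 in aged ISC, and 37.4 ± 6.18 in young and 39.1 ± 4.86 in aged AE, with -0.02 (SE 0.18, FDR = 0.942) and 0.06 (SE 0.15, FDR = 0.731).

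Promoters of 3 genes with different values in AE are shown next, since their regulators are part of the background: *Psmb5* (constitutive, lower in AE), *Psmb8* (its inducible counterpart) and *Psme1*. They are at chr14:54617946-54618245 (minus strand), chr17:34197945-34198244 (plus strand) and chr14:55578244-55578543 (plus strand) in RefSeq GRCm38.p6, with motif matches in capitals as before.
Psmb5: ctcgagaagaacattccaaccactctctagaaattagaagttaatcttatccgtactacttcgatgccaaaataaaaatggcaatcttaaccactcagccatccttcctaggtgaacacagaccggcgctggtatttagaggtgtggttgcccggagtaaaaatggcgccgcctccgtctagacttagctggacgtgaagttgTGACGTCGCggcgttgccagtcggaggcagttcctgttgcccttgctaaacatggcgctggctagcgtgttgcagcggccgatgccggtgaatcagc
Psmb8: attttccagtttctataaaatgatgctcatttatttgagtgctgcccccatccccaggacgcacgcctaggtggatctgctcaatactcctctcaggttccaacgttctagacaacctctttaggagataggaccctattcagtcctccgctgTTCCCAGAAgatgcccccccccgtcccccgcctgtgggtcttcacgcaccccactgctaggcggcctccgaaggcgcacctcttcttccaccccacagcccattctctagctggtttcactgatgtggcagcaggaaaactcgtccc
Psme1: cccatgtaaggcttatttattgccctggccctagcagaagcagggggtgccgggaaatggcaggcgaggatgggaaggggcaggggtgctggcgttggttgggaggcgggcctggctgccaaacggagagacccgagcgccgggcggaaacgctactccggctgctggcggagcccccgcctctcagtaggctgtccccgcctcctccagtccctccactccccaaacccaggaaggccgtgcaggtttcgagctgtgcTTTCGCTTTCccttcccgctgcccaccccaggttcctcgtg
*Psmb5* held TGACNNNGC 47 bases before its start, *Psmb8* held TTCNNNGAA 97 bases before its start, and *Psme1* held the reverse complement of the ISRE 10 bases after its start. *Psme2*, which was higher in AE, held none of the 3 motifs in either of its 2 listed promoters.

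Genes that work with the proteasome but do not carry its name were read from a list of 30, of which 29 had a row and were tested. In young mice 8 were higher and 7 lower in AE, and in aged mice 6 were higher and 11 lower, so their share called was 51.7% and 58.6%, near or below the 53.1% and 64.1% of all genes. *Rps27a*, which encodes a ribosomal protein made as a fusion with ubiquitin, was lower at -2.42 (SE 0.39, FDR = 0.00132) and -3.11 (SE 0.33, FDR = 2.23e-05). *Usp14*, a deubiquitinase of the 19S cap, was lower at -1.12 (SE 0.21, FDR = 0.00238) and -1.53 (SE 0.16, FDR = 1.85e-05). *Nfe2l2*, a factor of the antioxidant response, rose by 1.06 (SE 0.17, FDR = 0.00114) and 1.08 (SE 0.18, FDR = 5.35e-04). *Pomp*, the maturation factor that follows the 4 chaperones in 20S assembly, was at 0.39 (SE 0.19, FDR = 0.120) and 0.46 (SE 0.23, FDR = 0.0998) and was not called. Of 10 genes of peptide loading and its regulators, 8 passed as higher in AE at each age and 0 as lower. Of all genes, 27.7% passed as higher in young and 30% in aged mice. Log2 fold changes were 2.06 and 2.54 for *B2m* and 1.57 and 1.30 for *Tap1*, the transporter gene next to *Psmb9*. Values with library totals alone were not taken for these 2 lists. Of the exonic bases of *Psmb9*, 5.79% overlap *Tap1* on the opposite strand.

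Aged and young mice were compared within each cell type, the question for which the study was made. In ISC 0 of 48 proteasome genes passed an FDR of 0.05 with edgeR's quasi-likelihood test or with DESeq2, 0 of 48 had an unadjusted p under 0.05 with edgeR, and the background with edgeR was also 0 of 15552 genes (0%), with 4.47% under an unadjusted p of 0.05. DESeq2 called 0.373% of these genes. In AE 0 of 48 passed with either tool and 1 of 48 had an unadjusted p under 0.05, against 0 of 16265 genes passing (0%) and 4.97% under p of 0.05 with edgeR. DESeq2 called 0.111% of these genes. The median log2 fold change of aged over young was -0.01 in ISC and 0.01 in AE over proteasome genes, against 0.01 and -0.04 over all genes. With library totals alone the median in AE was -0.12, against -0.17 over all genes.

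For the 31 constitutive subunits the age effect lay between -0.15 and 0.15 in ISC and between -0.24 and 0.14 in AE. Their 95% intervals reached from -0.61 to 0.67 in ISC and from -0.64 to 0.51 in AE, so changes of the 20S core or 19S cap beyond these bounds lie outside the interval of every one of these genes. The inducible subunits had wider intervals. *Psmb8* had a log2 fold change of 0.77 (SE 0.54, unadjusted p = 0.192, FDR = 1.000 in edgeR's quasi-likelihood test) in ISC, with an interval of -0.47 to 2.00, and 0.51 (SE 0.33, unadjusted p = 0.157, FDR = 0.833 in edgeR's quasi-likelihood test) in AE, with -0.24 to 1.26. In ISC the value of *Psmb8* was 0.02 without aged ISC O1 and 1.14 without young ISC Y2. *Psmb9* was at 0.49 (SE 0.40, unadjusted p = 0.254, FDR = 1.000 in edgeR's quasi-likelihood test) in ISC and -0.07 without aged ISC O1, and at 0.15 in AE. *Psmb10* was at 0.07 and 0.20, *Psme1* at 0.10 and 0.10, and *Psme2* at 0.12 and 0.15 in ISC and AE.

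Outside the inducible core the lowest p-values in ISC belonged to *Psme3* at -0.23 (SE 0.13, unadjusted p = 0.106, FDR = 1.000 in edgeR's quasi-likelihood test), *Psmc3ip* at -0.29, and *Psmd2*, a large scaffold of the cap, at -0.14, while among genes higher in aged ISC *Psmg2* was at 0.15. *Psme3* in ISC ran from 164 to 169 CPM in aged and from 187 to 202 CPM in young mice. These do not overlap, as was so for 2 of 48 proteasome genes and 8.86% of all genes in ISC. In AE the one gene under an unadjusted p of 0.05 was *Psmg1*, at -0.76 (SE 0.31, unadjusted p = 0.0380, FDR = 0.833 in edgeR's quasi-likelihood test). *Psmg1* was at 12.2, 14.5 and 6.86 CPM in young AE and 6.57, 5.56 and 7.31 CPM in aged AE, where young AE Y3 lay within the aged range. *Psmd5* was at -0.36 (SE 0.17, unadjusted p = 0.0578, FDR = 0.833 in edgeR's quasi-likelihood test), *Psmg2* at -0.57 (SE 0.28, unadjusted p = 0.0745, FDR = 0.833 in edgeR's quasi-likelihood test) and *Psmg3* and *Psmg4* at -0.51 and -0.28, so the 4 assembly chaperones were each lower in aged AE without passing the test. On the other side *Psmd9* was at 0.30 (SE 0.17, unadjusted p = 0.112, FDR = 0.833 in edgeR's quasi-likelihood test) and *Psme2b* at 0.31. In AE 3 of 48 proteasome genes did not overlap between ages, against 10.9% of all genes. Marker RNA of crypt cells also differed between these AE groups. Stem cell markers summed to 145, 441 and 45.6 CPM in young AE Y1, Y2 and Y3, against 57.2 to 109 in aged AE. Proliferation markers summed to 82.7, 261 and 29.3 CPM, against 48.3 to 55.3. The part of this RNA in the age values of the 4 *Psmg* genes, which were higher in ISC, was not tested.

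**Figure D5:**
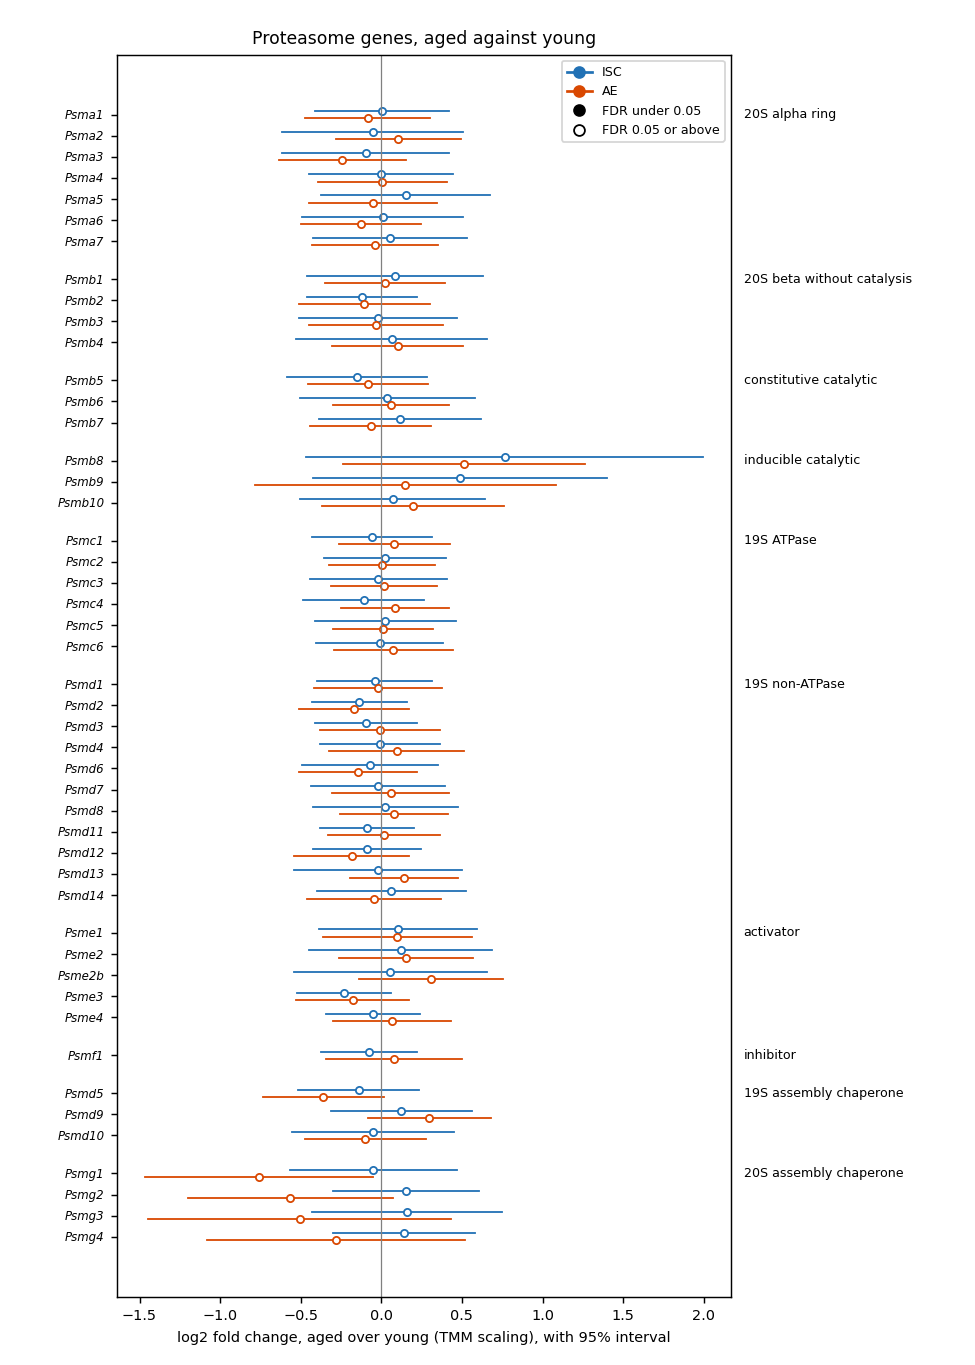
Log2 fold change of aged over young (x axis, TMM scaling) in ISC (blue) and AE (orange) for the 47 tested proteasome genes other than *Psmc3ip*, with 95% intervals. No point is filled, since none passed an FDR of 0.05. The intervals of *Psmb8* and *Psmb9* are the widest in ISC, and *Psmg1*, *Psmg2* and *Psmg3* lie furthest below 0 in AE.

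Whether the age effect differed between cell types was tested over all 12 libraries as the age effect in AE minus that in ISC. Here 0 of 48 proteasome genes passed an FDR of 0.05 with edgeR or DESeq2 and 1 of 48 had an unadjusted p under 0.05, against 0.00575% (1 gene) and 4.36% of 17377 genes with edgeR, and 0.247% passed with DESeq2. That gene was *Psmg2*, at -0.73 (SE 0.31, unadjusted p = 0.0373, FDR = 1.000 in edgeR's quasi-likelihood test). *Psmg1* was at -0.71 (SE 0.40, unadjusted p = 0.0954, FDR = 1.000 in edgeR's quasi-likelihood test) and *Psmc3ip* at -1.61 (SE 0.99, unadjusted p = 0.127, FDR = 1.000 in edgeR's quasi-likelihood test). The highest positive differences by p were 0.18 for *Psmc4*, 0.24 for *Psme2b* and 0.15 for *Psmf1*. A replicate block on the code number gave 0 of 48 as well.

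How far libraries of a group lay from each other differed by role. The pooled SD of log2 CPM within groups had a median of 0.24 over the 48 proteasome genes and 0.398 over all genes with at least 10 counts. The 2 medians were not matched for expression level, so their gap is not read as a trait of proteasome genes. It was 0.791 for *Psmb8*, 0.710 for *Psmb9*, 0.527 for *Psmg3*, 0.395 for *Psmb10* and 0.391 for *Psmg1*, so the 3 inducible catalytic genes and 2 of the 4 chaperones of 20S assembly were the least even of the subunits, activators and chaperones. *Psmc3ip* was higher still at 1.06, at low counts: it was at 6.05, 6.87 and 4.21 CPM in young and 5.11, 5.18 and 3.64 in aged ISC, and 0.818, 1.65 and 0.371 in young and 0.571, 0.0896 and 0 in aged AE. Its log2 fold change in AE was -2.71 (SE 0.57, FDR = 0.00458) and -4.39 (SE 0.68, FDR = 2.89e-04), and the second was -6.45 without aged AE O1 and -3.88 without aged AE O5, which had 0 counts.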

How the data were processed

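Sorted ISC and AE of both ages gave 12 RNA libraries, 3 per group, which were sequenced with single-end reads. The authors trimmed reads with Trim Galore 0.4.4, mapped them to GRCm38 with HISAT2 2.1.0 and counted uniquely mapped reads over the merged exons of each gene in SeqMonk. The deposited values are these raw counts for 34245 genes. A table of the authors' differentially expressed genes was not used. The annotation release is not given in the sources used here, and 43 of 50 proteasome genes had the coordinates of GENCODE M21.

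From these counts, each comparison kept the genes that reached 10 counts summed over its libraries. TMM factors and the quasi-likelihood test of edgeR 4.0.16 (R 4.3.3) were used, with Benjamini-Hochberg adjustment over all genes and an FDR threshold of 0.05. AE were compared with ISC at each age, aged with young in each cell type, and the difference of age effects was fitted over 12 libraries. Standard errors were derived from the log2 fold change and the F statistic. Alternatives were DESeq2 1.42.0, other scalings and filters, a fit on all groups, the code number as a replicate block, and each library left out in turn. Scaling by library totals alone was added after the data were seen. The code numbers of ISC and AE libraries were taken as pairs because libraries of the same number deviated together over genes in 6 of 6 pairs (correlations 0.177 to 0.383, against -0.288 to 0.0712 in 12 other pairs). Deviations were taken from means of 3 libraries, so positive values in same-number pairs push the other pairs down. The 12 other pairs are thus no independent contrast. Calls with the replicate block and the paired p-values rest on this pairing, which was read from the same data. Whether a number stands for a mouse is not given.

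In tests on simulated data, 100 genes were changed 2-fold and 100 changed 4-fold in each comparison. Of these, edgeR recovered 14 and 90 for AE against ISC in young mice (16069 genes) and 54 and 99 in aged mice (15493). For age it recovered 44 and 96 in ISC (15262) and 34 and 95 in AE (15628). False calls by edgeR numbered 5, 13, 11 and 4 in the same order. DESeq2 recovered 38, 67, 65 and 56 of the 2-fold changes, with 46, 38, 49 and 39 false calls. In the measured counts 53.1% and 64.1% of genes passed for AE against ISC in young and aged mice. Recovery with that many changed genes was not tested.

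The genes, the lists and the roles were chosen with earlier results of these data known. Named genes were the 6 catalytic subunits, the activators *Psme1* to *Psme4* and *Psmf1*, in each comparison up to 5 called genes with the largest change in each direction (or, with none called, the 3 of lowest p in each), and genes at the limit of detection. Other genes were named after their values were seen. The values of some genes of the pathway list are not reported here.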

Additional observations from a re-analysis of the deposited data

How the results depend on the processing

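Proteasome genes called in AE against ISC numbered 15 in young and 23 in aged mice, and 10 to 21 and 15 to 29 without single libraries. Scaling by library totals alone, chosen after seeing the data, gave 43 at each age, with the median log2 fold change of proteasome genes at -0.97 in young and -1.12 in aged mice and at -0.12 for aged over young in AE. Without single libraries that median ran over -0.42 to -0.20 in young and -0.52 to -0.25 in aged mice, -0.11 to 0.15 for age in ISC and -0.10 to 0.07 for age in AE. RLE, upper-quartile factors, other filters, DESeq2 and a fit on all 4 groups gave 14 to 20 called in young and 19 to 25 in aged mice. The age comparisons and the difference of age effects gave 0 under every alternative run. With the code number as a replicate block, 21 were called in young and 27 in aged mice, and among the named genes the block changed the calls of *Psmb8*, *Psmb9* and *Psmb10* alone, as given above. With library totals alone, directions turned to log2 fold changes of *Psme2b* -0.076, *Psmb9* -0.046, *Psmb10* -0.090, *Psme1* -0.56 and *Psme4* -0.48 for AE over ISC in young mice, *Psme2* -0.020, *Psmb8* -0.10, *Psmb9* -0.55, *Psmb10* -0.12, *Psme1* -0.73, *Psme4* -0.53 and *Psmf1* -0.72 for AE over ISC in aged mice, *Psmb6* -0.068, *Psme1* -0.031, *Psme4* -0.065 and *Psmf1* -0.043 for aged over young in AE. Directions also turned to 0.012 for *Psmf1* in young mice with the filterByExpr filter, and to *Psme1* -0.044 and *Psmf1* -0.028 for AE over ISC in aged mice with upper-quartile factors, and none of these genes was called. Leaving out single libraries turned directions for genes not called, with ranges of *Psmf1* -0.19 to 0.073 and *Psme1* -0.0060 to 0.26 for AE over ISC in young mice, *Psmb9* -0.23 to 0.78, *Psme1* -0.15 to 0.26 and *Psmf1* -0.0035 to 0.17 for AE over ISC in aged mice, *Psmb6* -0.14 to 0.24, *Psmb7* -0.061 to 0.28, *Psmb10* -0.14 to 0.29, *Psmb9* -0.074 to 0.77, *Psme1* -0.11 to 0.29 and *Psme2* -0.074 to 0.34 for aged over young in ISC, *Psme4* -0.035 to 0.14, *Psmf1* -0.043 to 0.20, *Psmb7* -0.16 to 0.056, *Psmb9* -0.31 to 0.55, *Psme1* -0.11 to 0.21, *Psmb6* -0.048 to 0.16, *Psmb10* -0.0050 to 0.38, *Psme2* -0.017 to 0.25 and *Psmb5* -0.22 to 0.015 for aged over young in AE, *Psme2b* -0.012 to 0.46 and *Psmf1* -0.067 to 0.23 for the difference of age effects. *Psma8* and *Psmb11* had 0 counts throughout, and *Psmc3ip* was at low counts in AE. Limits are the choice of scaling, which moved counts and directions as given, the wide spread of the inducible subunits, the crossed codes in the titles and the counting of near-identical copies. The causes of these changes were not tested.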
